A study of Homo sapiens with 8 samples.

Results

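The genes described here are the canonical histone genes of the human genome that could be measured in TMD8 cells, 34 genes that encode the linker histone H1 and the core histones H2A, H2B, H3 and H4. They are the rows of the deposited table whose symbol starts with HIST1H, HIST2H, HIST3H or HIST4H and whose mean log2 level over the 8 libraries was at least 4. That rule took 34 of the 70 such rows, in a table of 25066 genes. They comprised 2 of 6 H1 genes, 7 of 17 H2A genes, 12 of 18 H2B genes, 7 of 14 H3 genes and 6 of 15 H4 genes. The table gives these genes by older symbols. TMD8 is an established human lymphoma line of the ABC-DLBCL subtype (a large B cell lymphoma that resembles activated B cells), and all of its cells here had been transduced with a lentivirus for Cas9. They also stably carried a guide RNA against KLHL14 (sgKLHL14, labelled genotype KLHL14(-/-)) or a control guide (sgCTRL, labelled KLHL14(+/+)). Cells of each kind received 2 nM ibrutinib, an inhibitor of the kinase BTK, or its vehicle DMSO, for 24 h. The 4 groups of 2 libraries were thus sgKLHL14 with ibrutinib, sgKLHL14 with DMSO, sgCTRL with ibrutinib and sgCTRL with DMSO. The labels do not say whether the cells were a pool or a clone, nor whether the replicates were separate cultures. The p-values therefore measure only how far these libraries spread, which may be technical variation.

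Replication-dependent histone genes lie in clusters, are transcribed in S phase and supply the histones that package newly made DNA. Their mRNAs are the only known metazoan mRNAs that usually end without a poly(A) tail: the transcript is cut just past a conserved stem-loop, which the stem-loop binding protein SLBP holds through processing, translation and decay. Some histone genes also give longer transcripts with a poly(A) tail, best known from cells that have left the cycle or are differentiating. The libraries were made with a stranded kit for poly(A) mRNA, per the labels' protocols, so the values below are those of the histone transcripts that such a kit recovers. Such a kit is not made to recover histone mRNAs without a tail, and the share of either form among these reads was not tested.

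The stem-loop was looked for in the GENCODE v29 transcripts of each gene on the transcribed strand, as GG, any 2 bases, CTT, any 1 base, T, any 1 base, A, any 2 bases and GCC. It was found in 20 of the 34 genes, against 101 of 19669 genes with a protein-coding transcript (0.514%). None of the annotated transcripts of the other 14 matched, which does not show that these genes lack a stem-loop. An annotated transcript that ends before the stem-loop, or other letters, would also give no match. In 16 of the 20, at least 1 annotated transcript ran on for 100 bases or more past the stem-loop, as a transcript with a tail would. The copies below are shown because they hold 5 of the 6 forms of the letters found, the commonest form in a transcript that ends near it (HIST1H2AI) and in one that runs on (HIST1H3H); capitals mark the stem-loop and 5 bases on either side are in lower case.
HIST1H2AI: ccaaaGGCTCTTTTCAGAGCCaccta
HIST1H2AG: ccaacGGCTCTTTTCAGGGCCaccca
HIST1H2BC: ccaaaGGCTCTTTTAAGAGCCaccca
HIST1H3H: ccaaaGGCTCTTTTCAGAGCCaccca
HIST1H3E: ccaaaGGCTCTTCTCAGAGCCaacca
HIST1H4H: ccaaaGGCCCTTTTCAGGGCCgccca
HIST1H2AI and HIST1H3H share the letters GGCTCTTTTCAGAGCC with 8 more of these genes, and the H4 genes HIST1H4H, HIST1H4E and HIST4H4 share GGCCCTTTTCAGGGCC. The annotated transcript of HIST1H2AI ends 39 bases past the stem-loop. The longest of HIST1H2BC, HIST1H3H, HIST1H4H, HIST1H2AG and HIST1H3E run on for 116, 769, 1655, 1761 and 1862 bases.

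All 8 libraries held between 12333876 and 23467110 reads. The histone genes took 0.0552% to 0.0923% of them, so that many of the values below rest on few reads. The libraries labelled sgKLHL14 did not have less KLHL14 mRNA, whose log2 level was 13.16 and 13.16 in sgKLHL14 ibrutinib cells, 12.19 and 12.33 in sgKLHL14 DMSO cells, 12.30 and 12.30 in sgCTRL ibrutinib cells and 12.07 and 12.06 in sgCTRL DMSO cells. The level of an mRNA does not show whether its gene was edited, and sgKLHL14 below names the libraries so labelled. The B cell markers MS4A1, CD79A, CD79B, PAX5, CD22, CD74 and BLK were present in every library. Of the T cell markers CD3D and CD3E were listed at 0 in all 8, while CD8A stood at 5.24 to 6.13 on the log2 scale; of the myeloid markers S100A8 was at 0 in all 8, while ITGAM stood at 2.81 to 4.40.

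Most histone mRNAs, as recovered by this kit, were higher with ibrutinib. With sgKLHL14, 19 of the 34 genes rose and 0 fell in the limma fit over all genes at an adjusted p under 0.05, where 19.6% of the 12702 genes tested rose and 19.2% fell. With sgCTRL, 23 of the 34 rose and 0 fell, where 17.9% of all genes tested rose and 16.8% fell. The voom fit of the recovered reads also gave 0 falls. The log2 difference was above 0 for 33 of the 34 genes with either guide. Its median was 0.68 with sgKLHL14, beside 0.011 over all genes tested, and 0.85 with sgCTRL, beside 0.018. Both ibrutinib libraries lay on one side of both DMSO libraries for 29 of the 34 genes with sgKLHL14, against 67.5% of all genes, and for 31 with sgCTRL, against 69.5%. The calls covered 27 genes, 15 of them called with both guides, 4 with sgKLHL14 alone and 8 with sgCTRL alone. Of the 34 genes, 4 had a mean below the level of 4 in DMSO and entered through their ibrutinib libraries (HIST1H3J, HIST1H4D, HIST1H4E and HIST1H4K). Among the other 30 genes, 17 rose with sgKLHL14 and 20 with sgCTRL.

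These are bulk libraries, so a change in the number of cells that make a transcript and a change in its amount per cell cannot be told apart. Several cell type markers moved with this result. Of the 8 B cell markers, 7 rose with sgKLHL14 and 6 with sgCTRL and 0 fell, among them CD79B, a subunit of the B cell receptor, by 1.15 and 1.24. CD8A rose by 0.74 with sgKLHL14 and gave 0.63 with sgCTRL, where it was not called, and the other 4 T cell markers were too low to test. The 5 T cell markers summed to 58.5 to 70.04 in sgKLHL14 ibrutinib cells, 37.8 to 41.0 in sgKLHL14 DMSO cells, 50.7 to 68.8 in sgCTRL ibrutinib cells and 38.4 to 40.1 in sgCTRL DMSO cells on the linear scale. The 5 myeloid markers, none of them high enough to test, summed to 15.3 to 32.5, 17.6 to 23.2, 27.8 to 32.4 and 20.9 to 26.0 in the same order of groups. EPCAM and KRT18 were at 0 in 7 of the 8 libraries each, while 2 of the 4 measurable epithelial and fibroblast markers rose with ibrutinib with either guide: COL1A1 by 0.91 with sgKLHL14 and 1.06 with sgCTRL, and DCN by 1.55 and 1.94. KRT8 fell by 0.60 with sgKLHL14 and by 0.47 with sgCTRL. The 6 markers of that list summed to 485 to 527 in sgKLHL14 ibrutinib cells, 430 to 507 in sgKLHL14 DMSO cells, 525 to 543 in sgCTRL ibrutinib cells and 408 to 427 in sgCTRL DMSO cells on the linear scale. The part of any of these markers in the histone result was not tested.

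**Figure D1:**
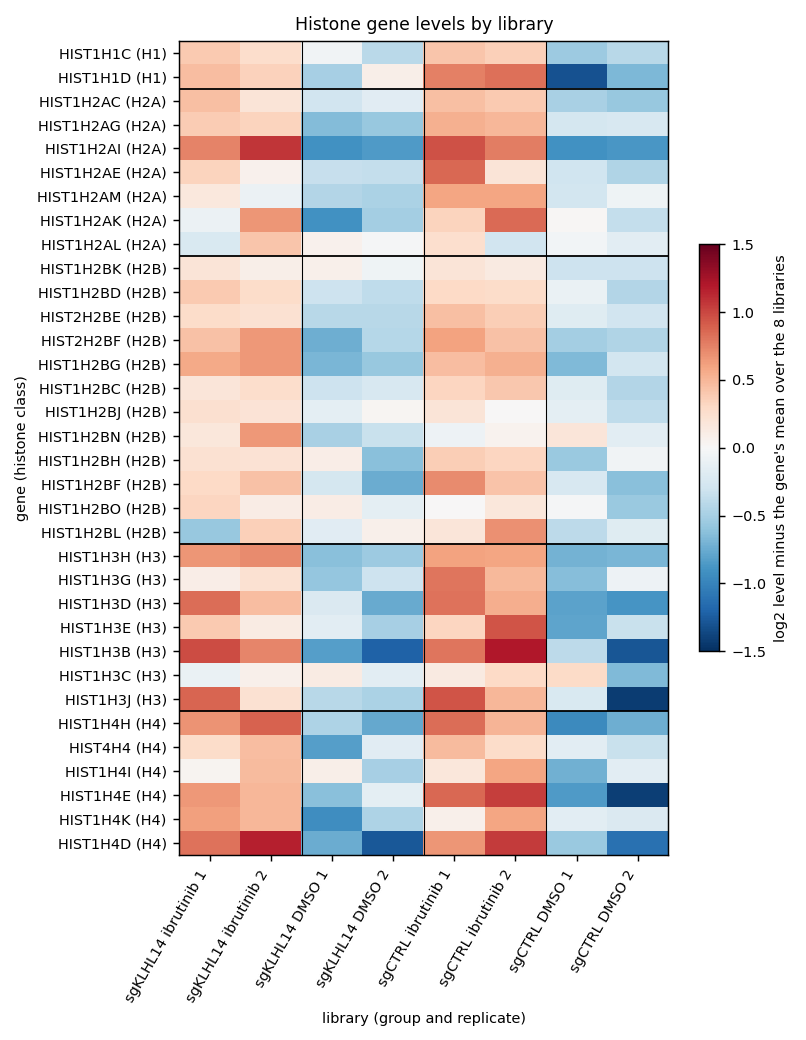
Log2 level of each of the 34 histone genes (rows, ordered by class) in each of the 8 libraries (columns), as the difference from that gene's own mean, in colour up to 1.5 above or below 0 on the log2 scale. The ibrutinib columns are mostly red and the DMSO columns mostly blue with either guide; HIST1H2AL and HIST1H3C show no such split.

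Class sums were taken on the linear scale of the table, where 1 read was worth 1.16 to 2.19. The difference between treatments was largest in ratio for H3 and H4. Of these genes, HIST1H3J, HIST1H4D, HIST1H4E and HIST1H4K had a DMSO mean under the level for inclusion. The rule itself thus favoured a difference in the H3 and H4 sums, and no ratio without these genes was computed. The 7 H3 genes summed to 741 and 705 in sgKLHL14 ibrutinib cells against 354 and 335 in sgKLHL14 DMSO cells, a ratio of 2.10. With sgCTRL they summed to 759 and 770 in ibrutinib cells against 326 and 314 in DMSO cells, a ratio of 2.39. The 6 H4 genes had ratios of 2.20 with sgKLHL14 and 2.28 with sgCTRL. H2A genes followed with 1.73 and 1.93 and H1 genes with 1.46 and 1.83. H2B genes had 1.21 and 1.43, in each pair with sgKLHL14 first. The H2B sum is mostly HIST1H2BK and the H1 sum mostly HIST1H1C, so this order is not one of typical genes. The median log2 difference of the 12 H2B genes was 0.58 with sgKLHL14 and 0.65 with sgCTRL, beside 0.56 and 0.77 for the 7 H2A genes. The ibrutinib libraries lay above the DMSO libraries in all 5 classes with either guide. All 34 genes together had ratios of 1.35 with sgKLHL14 and 1.63 with sgCTRL; this sum is mostly HIST1H1C and HIST1H2BK, and the mean of the log2 values, which weights genes equally, differed by 0.79 with sgKLHL14 and 0.94 with sgCTRL. No test was made of the sums.

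**Figure D2:**
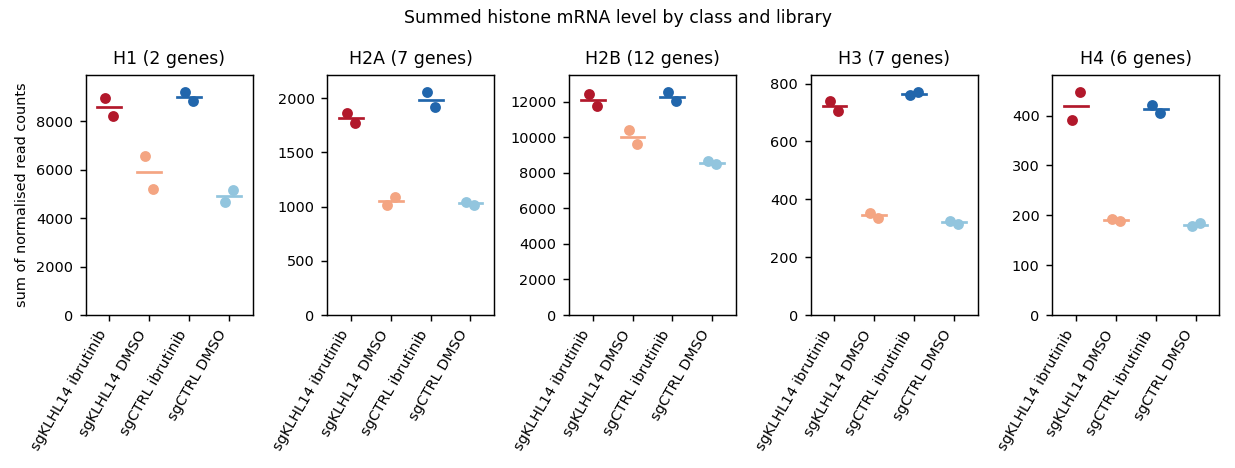
Summed level of the members of each histone class (linear values of the table, from 0) in each library (points) with the group mean (line), for the 4 groups. The 4 ibrutinib libraries lie above the 4 DMSO libraries in every class. The gap relative to the DMSO level is smallest for H2B, whose ratios were 1.21 with sgKLHL14 and 1.43 with sgCTRL. The H2B sum is mostly HIST1H2BK.

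Linker histones bind the DNA that enters and leaves the nucleosome, and both measured H1 genes were higher with ibrutinib. HIST1H1C, which encodes H1.2, had log2 levels of 13.12 and 13.00 in sgKLHL14 ibrutinib cells, 12.68 and 12.33 in sgKLHL14 DMSO cells, 13.16 and 13.10 in sgCTRL ibrutinib cells and 12.19 and 12.32 in sgCTRL DMSO cells. The ibrutinib libraries of either guide lay above its DMSO libraries, and the highest DMSO library was a sgKLHL14 one. HIST1H1C differed by 0.55 (SE 0.084, limma adjusted p = 3.46e-05) with sgKLHL14 and 0.87 (SE 0.084, limma adjusted p = 1.39e-07) with sgCTRL, a rise of 1.47-fold and 1.83-fold. HIST1H1D, which encodes H1.3, had far fewer reads, from 9 to 46 per library. Its levels were 5.95 and 5.83 in sgKLHL14 ibrutinib cells, 4.98 and 5.57 in sgKLHL14 DMSO cells, 6.23 and 6.30 in sgCTRL ibrutinib cells and 4.17 and 4.80 in sgCTRL DMSO cells. The groups did not overlap with either guide, and the lowest library was a sgCTRL DMSO one. HIST1H1D differed by 0.61 (SE 0.3, limma adjusted p = 0.115) with sgKLHL14 and 1.78 (SE 0.3, limma adjusted p = 1.19e-04) with sgCTRL, so that it rose with sgCTRL and did not pass the test with sgKLHL14. HIST1H1E, with a mean of 3.97, was just below the level for inclusion, as HIST1H4D, with 4.14, was just above it.

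Of the 7 H2A genes, 4 rose with sgKLHL14 and 5 with sgCTRL. H2A pairs with H2B in the dimers at the faces of the nucleosome. HIST1H2AI had one of the largest differences of all histone genes. Its log2 levels were 7.86 and 8.20 in sgKLHL14 ibrutinib cells, 6.21 and 6.27 in sgKLHL14 DMSO cells, 8.08 and 7.89 in sgCTRL ibrutinib cells and 6.21 and 6.24 in sgCTRL DMSO cells. In reads these were 143 and 134 in sgKLHL14 ibrutinib cells, 63 and 63 in sgKLHL14 DMSO cells, 165 and 117 in sgCTRL ibrutinib cells and 37 and 65 in sgCTRL DMSO cells, and all 4 ibrutinib libraries lay above all 4 DMSO libraries by more than 1.5 on the log2 scale. HIST1H2AI differed by 1.79 (SE 0.17, limma adjusted p = 8.70e-08) with sgKLHL14 and 1.76 (SE 0.17, limma adjusted p = 1.17e-07) with sgCTRL, 3.47-fold and 3.38-fold. HIST1H2AG stood at 8.93 and 8.89 in sgKLHL14 ibrutinib cells, 7.90 and 7.98 in sgKLHL14 DMSO cells, 9.09 and 9.05 in sgCTRL ibrutinib cells and 8.29 and 8.32 in sgCTRL DMSO cells. All ibrutinib libraries lay above all DMSO libraries, and with either treatment the sgKLHL14 libraries were the lower ones. HIST1H2AG differed by 0.97 (SE 0.1, limma adjusted p = 5.89e-07) with sgKLHL14 and 0.77 (SE 0.1, limma adjusted p = 1.11e-05) with sgCTRL. HIST1H2AC stood at 9.82 and 9.57 in sgKLHL14 ibrutinib cells, 9.09 and 9.21 in sgKLHL14 DMSO cells, 9.83 and 9.77 in sgCTRL ibrutinib cells and 8.89 and 8.81 in sgCTRL DMSO cells. Here too the ibrutinib libraries were the 4 highest. HIST1H2AC differed by 0.55 (SE 0.097, limma adjusted p = 1.74e-04) with sgKLHL14 and 0.95 (SE 0.097, limma adjusted p = 2.99e-07) with sgCTRL. HIST1H2AE and HIST1H2AM gave 0.56 and 0.50 with sgKLHL14, where neither was called, and rose by 0.90 and 0.76 with sgCTRL. HIST1H2AK rose by 0.99 with sgKLHL14 and gave 0.76 with sgCTRL, where it was not called. For none of these 3 was the difference in response called. With sgKLHL14, HIST1H2AE lay close to the threshold: it was called in 7 of the 18 alternatives, among them the replicate block (limma adjusted p = 0.0349), the robust variance prior and the fits without either sgCTRL ibrutinib library. HIST1H2AM was called with sgKLHL14 without the mean-variance trend, and HIST1H2AK with sgCTRL in the fit of the compared libraries alone. HIST1H2AL gave 0.07 with sgKLHL14 and 0.08 with sgCTRL. The call of HIST1H2AE ended without the first sgCTRL ibrutinib library, where its difference was 0.57, that of HIST1H2AM without either sgCTRL ibrutinib library or the first sgCTRL DMSO library, and that of HIST1H2AK without the second sgKLHL14 ibrutinib library, where it was 0.61, or the first sgKLHL14 DMSO library. Without the level filter the calls of HIST1H2AM and HIST1H2AK also ended, and without the mean-variance trend that of HIST1H2AK.

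Among the 12 H2B genes, 7 rose with sgKLHL14 and 7 with sgCTRL. HIST1H2BK had the most reads of all 34 genes, from 3194 to 7153 per library, and one of the smallest changes. Its log2 levels were 13.15 and 13.04 in sgKLHL14 ibrutinib cells, 13.03 and 12.89 in sgKLHL14 DMSO cells, 13.15 and 13.09 in sgCTRL ibrutinib cells and 12.64 and 12.65 in sgCTRL DMSO cells. The sgCTRL DMSO libraries were the low ones, while the ibrutinib libraries of both guides lay close together. HIST1H2BK differed by 0.14 (SE 0.063, limma adjusted p = 0.0954) with sgKLHL14 and 0.48 (SE 0.063, limma adjusted p = 7.35e-06) with sgCTRL, and with sgKLHL14 its call was made only without the first sgKLHL14 DMSO library. HIST1H2BD stood at 10.27 and 10.15 in sgKLHL14 ibrutinib cells, 9.56 and 9.49 in sgKLHL14 DMSO cells, 10.17 and 10.15 in sgCTRL ibrutinib cells and 9.78 and 9.43 in sgCTRL DMSO cells. No DMSO library reached any ibrutinib library. HIST1H2BD differed by 0.68 (SE 0.097, limma adjusted p = 1.52e-05) with sgKLHL14 and 0.56 (SE 0.097, limma adjusted p = 1.70e-04) with sgCTRL. HIST2H2BE, from the cluster on chromosome 1, stood at 9.85 and 9.80 in sgKLHL14 ibrutinib cells, 9.16 and 9.16 in sgKLHL14 DMSO cells, 10.03 and 9.94 in sgCTRL ibrutinib cells and 9.39 and 9.29 in sgCTRL DMSO cells. Its treatments did not overlap with either guide, and the sgCTRL libraries lay slightly above the sgKLHL14 libraries in each treatment. HIST2H2BE differed by 0.67 (SE 0.084, limma adjusted p = 3.56e-06) with sgKLHL14 and 0.65 (SE 0.084, limma adjusted p = 6.02e-06) with sgCTRL. HIST2H2BF (1.13 with sgKLHL14, 1.00 with sgCTRL), HIST1H2BG (1.23 and 0.97), HIST1H2BC (0.49 and 0.68) and HIST1H2BF (0.87 and 1.01) rose with both guides. HIST1H2BN rose with sgKLHL14 (0.82) and gave -0.03 with sgCTRL. HIST1H2BJ, HIST1H2BH, HIST1H2BO and HIST1H2BL passed the test with neither guide; their differences ran from -0.06 for HIST1H2BL to 0.49 for HIST1H2BH with sgKLHL14, and from 0.36 for HIST1H2BJ to 0.72 for HIST1H2BL with sgCTRL. Leaving out the second sgKLHL14 ibrutinib or the first sgKLHL14 DMSO library ended the sgKLHL14 calls of HIST1H2BC and HIST1H2BN, as did the second sgKLHL14 DMSO library for HIST1H2BC. The call of HIST1H2BF ended without the second sgKLHL14 ibrutinib or DMSO library, and with sgCTRL without the first ibrutinib or the second DMSO library; with either guide it also ended without the level filter.

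H3 and H4 form the tetramer at the core of the nucleosome. Of the 7 H3 genes, 3 rose with sgKLHL14 and 6 with sgCTRL. HIST1H3H, the H3 gene with most reads (73 to 232 per library), stood at 8.56 and 8.61 in sgKLHL14 ibrutinib cells, 7.27 and 7.35 in sgKLHL14 DMSO cells, 8.51 and 8.49 in sgCTRL ibrutinib cells and 7.19 and 7.22 in sgCTRL DMSO cells. The SD of the replicates was at most 0.058 in any group, and the ibrutinib libraries lay above the DMSO libraries by over 1 on the log2 scale. HIST1H3H differed by 1.27 (SE 0.12, limma adjusted p = 1.62e-07) with sgKLHL14 and 1.30 (SE 0.12, limma adjusted p = 1.27e-07) with sgCTRL, 2.41-fold and 2.45-fold. HIST1H3B stood at 6.29 and 6.04 in sgKLHL14 ibrutinib cells, 4.48 and 4.10 in sgKLHL14 DMSO cells, 6.10 and 6.51 in sgCTRL ibrutinib cells and 4.91 and 4.03 in sgCTRL DMSO cells. Its DMSO libraries held 14 to 19 reads and its ibrutinib libraries 30 to 48, with groups apart. HIST1H3B differed by 1.88 (SE 0.33, limma adjusted p = 1.56e-04) with sgKLHL14 and 1.84 (SE 0.33, limma adjusted p = 2.25e-04) with sgCTRL. HIST1H3D stood at 6.63 and 6.26 in sgKLHL14 ibrutinib cells, 5.59 and 5.04 in sgKLHL14 DMSO cells, 6.62 and 6.34 in sgCTRL ibrutinib cells and 5.00 and 4.92 in sgCTRL DMSO cells. The 4 DMSO libraries were the lowest ones. HIST1H3D differed by 1.13 (SE 0.26, limma adjusted p = 0.00207) with sgKLHL14 and 1.52 (SE 0.26, limma adjusted p = 1.70e-04) with sgCTRL. HIST1H3G stood at 5.91 and 6.04 in sgKLHL14 ibrutinib cells, 5.23 and 5.50 in sgKLHL14 DMSO cells, 6.62 and 6.30 in sgCTRL ibrutinib cells and 5.17 and 5.74 in sgCTRL DMSO cells. The sgCTRL ibrutinib libraries were the highest, and the sgKLHL14 ibrutinib libraries lay close above the DMSO libraries. HIST1H3G differed by 0.61 (SE 0.26, limma adjusted p = 0.0736) with sgKLHL14 and 1.00 (SE 0.26, limma adjusted p = 0.00575) with sgCTRL, and its sgCTRL call ended without the first sgCTRL ibrutinib or the first sgCTRL DMSO library. HIST1H3E and HIST1H3J gave 0.58 and 0.99 with sgKLHL14, where neither was called, and rose by 1.20 and 1.54 with sgCTRL. The HIST1H3E call ended without the second sgCTRL ibrutinib library, and that of HIST1H3J without the first sgCTRL ibrutinib or the second sgCTRL DMSO library, where its difference was 0.94, or without the level filter. HIST1H3J had a DMSO mean under the level for inclusion, and of the other 6 H3 genes 3 rose with sgKLHL14 and 5 with sgCTRL. HIST1H3C overlapped between treatments with either guide, at 0.01 with sgKLHL14 and 0.41 with sgCTRL.

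Of the 6 H4 genes, which all encode the same protein, 4 rose with sgKLHL14 and 3 with sgCTRL. HIST1H4D, HIST1H4E and HIST1H4K had a DMSO mean under the level for inclusion, so that the rule itself favoured a difference, and of the other 3 genes 2 rose with sgKLHL14 and 1 with sgCTRL. HIST1H4H stood at 7.53 and 7.75 in sgKLHL14 ibrutinib cells, 6.40 and 6.10 in sgKLHL14 DMSO cells, 7.70 and 7.38 in sgCTRL ibrutinib cells and 5.91 and 6.12 in sgCTRL DMSO cells. All its ibrutinib libraries lay above all its DMSO libraries by over 0.9 on the log2 scale. HIST1H4H differed by 1.39 (SE 0.19, limma adjusted p = 9.87e-06) with sgKLHL14 and 1.52 (SE 0.19, limma adjusted p = 3.93e-06) with sgCTRL, 2.63-fold and 2.87-fold. HIST1H4E and HIST1H4D had few reads, at most 24 and 19 in a library. HIST1H4E stood at 5.09 and 4.94 in sgKLHL14 ibrutinib cells, 3.81 and 4.29 in sgKLHL14 DMSO cells, 5.30 and 5.48 in sgCTRL ibrutinib cells and 3.59 and 3.03 in sgCTRL DMSO cells. Its sgCTRL libraries were both the highest and the lowest. HIST1H4E differed by 0.96 (SE 0.39, limma adjusted p = 0.0597) with sgKLHL14 and 2.08 (SE 0.39, limma adjusted p = 3.92e-04) with sgCTRL, the largest difference of any of the 34 genes with sgCTRL. HIST1H4D stood at 4.95 and 5.30 in sgKLHL14 ibrutinib cells, 3.40 and 2.87 in sgKLHL14 DMSO cells, 4.80 and 5.19 in sgCTRL ibrutinib cells and 3.59 and 3.03 in sgCTRL DMSO cells. The treatments were well apart with either guide. HIST1H4D differed by 1.99 (SE 0.44, limma adjusted p = 0.00134) with sgKLHL14 and 1.69 (SE 0.44, limma adjusted p = 0.00562) with sgCTRL, the largest of the 34 with sgKLHL14. Both ibrutinib groups of these genes lay above both DMSO groups. HIST4H4, a single gene on chromosome 12, stood at 6.19 and 6.38 in sgKLHL14 ibrutinib cells, 5.09 and 5.75 in sgKLHL14 DMSO cells, 6.38 and 6.19 in sgCTRL ibrutinib cells and 5.76 and 5.58 in sgCTRL DMSO cells. The first sgKLHL14 DMSO library was the lowest, and treatments did not overlap. HIST4H4 differed by 0.87 (SE 0.26, limma adjusted p = 0.0115) with sgKLHL14 and 0.62 (SE 0.26, limma adjusted p = 0.0696) with sgCTRL. HIST1H4K rose with sgKLHL14 (1.25; with sgCTRL 0.52, not called). HIST1H4I stood at 5.22 and 5.65 in sgKLHL14 ibrutinib cells, 5.27 and 4.68 in sgKLHL14 DMSO cells, 5.35 and 5.77 in sgCTRL ibrutinib cells and 4.46 and 5.03 in sgCTRL DMSO cells. Its treatments overlapped with sgKLHL14 and not with sgCTRL. HIST1H4I differed by 0.46 (SE 0.33, limma adjusted p = 0.293) with sgKLHL14 and 0.82 (SE 0.33, limma adjusted p = 0.0641) with sgCTRL. HIST1H4I was called with sgCTRL without the second sgCTRL DMSO library (1.10), and HIST1H4E with sgKLHL14 without either sgCTRL DMSO library, without the mean-variance trend, with a pseudocount of 16 and in the voom fit. The HIST4H4 call ended without the second sgKLHL14 ibrutinib or the first sgKLHL14 DMSO library, where its difference was 0.54, that of HIST1H4K without either sgKLHL14 ibrutinib library or the first sgKLHL14 DMSO library, and that of HIST1H4D with sgCTRL without the second sgCTRL ibrutinib library. Without the level filter the calls of HIST4H4 and HIST1H4K also ended. The genes of a core histone class are similar in their coding sequence, and reads that the counting could not place may be missing or misplaced. Values of single genes are thus less certain than those of a class. How many reads this touches was not tested.

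The 36 histone genes below the level of 4 were not tested. Of these, 6 were listed at 0 in every library, 22 had a higher mean in ibrutinib than in DMSO libraries and 8 a lower one. The highest single value among them was 4.93 on the log2 scale.

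**Figure D3:**
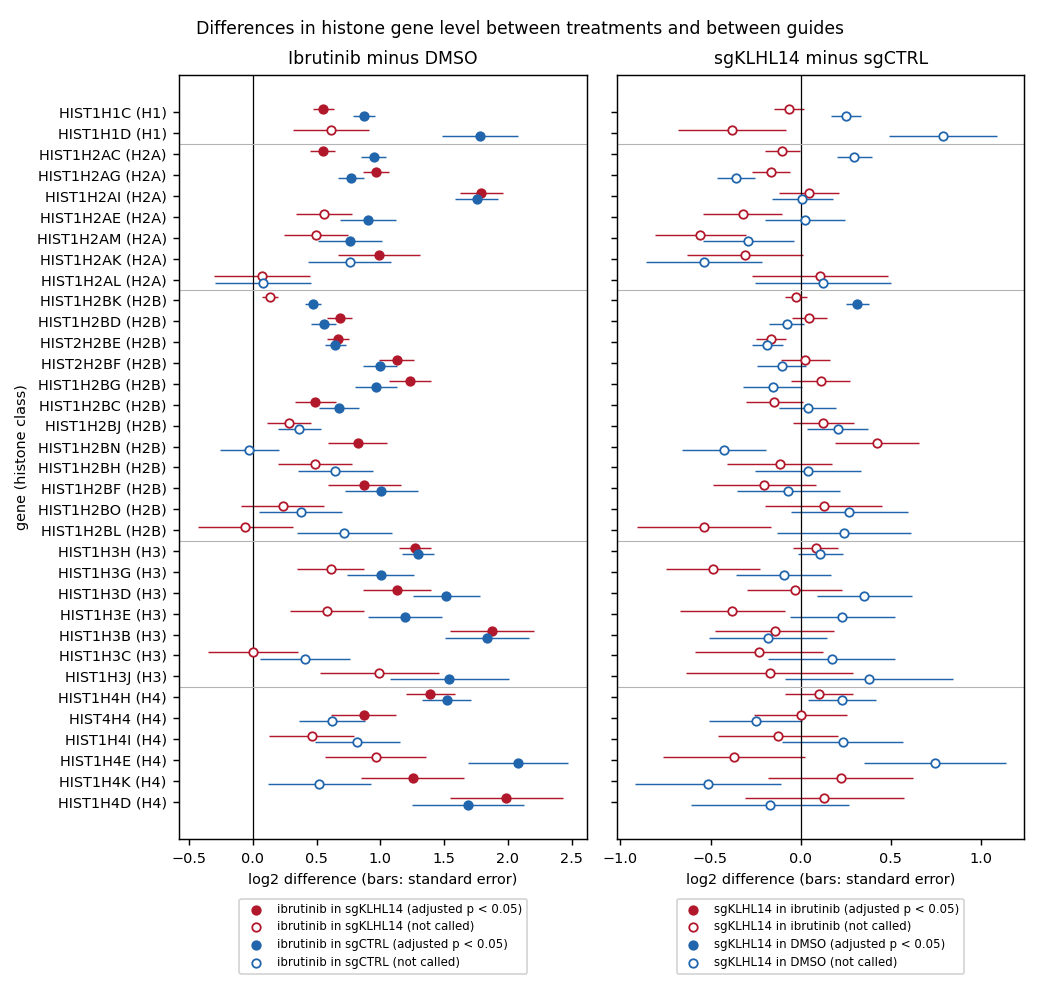
Log2 difference with its standard error for each of the 34 histone genes, ibrutinib minus DMSO (left, sgKLHL14 in red and sgCTRL in blue) and sgKLHL14 minus sgCTRL (right, in ibrutinib in red and in DMSO in blue); filled points passed an adjusted p of 0.05. On the left, 19 points with sgKLHL14 and 23 with sgCTRL are filled, all to the right of 0; on the right a single point is filled, HIST1H2BK in DMSO.

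Between the guides few histone genes passed the test. In DMSO, 1 of the 34 genes was called, HIST1H2BK, at 0.31 (SE 0.063, limma adjusted p = 0.0117), where 1.62% of all genes tested were called in either direction and 0.772% were higher. Its levels were 13.03 and 12.89 in sgKLHL14 DMSO cells and 12.64 and 12.65 in sgCTRL DMSO cells, and these groups did not overlap. The call ended when any of 3 of the 4 DMSO libraries was left out (limma adjusted p = 0.168 without the first sgKLHL14 library, 0.111 without the first sgCTRL library and 0.0599 without the second), and also without the level filter or the mean-variance trend. HIST1H1C was 0.25 higher in sgKLHL14 DMSO cells and was not called (limma adjusted p = 0.167); without the second sgKLHL14 DMSO library it was called, at 0.42. In all, 6 genes had an unadjusted p under 0.05. Besides HIST1H2BK and HIST1H1C these were HIST1H1D, at 0.79 (SE 0.30), HIST1H2AC, at 0.30 (SE 0.097), HIST1H2AG, at -0.36 (SE 0.10), and HIST2H2BE, at -0.18 (SE 0.084). Their limma adjusted p ran from 0.0979 to 0.339. The groups did not overlap for these 6 genes, and for 16 of the 34 in all. The share of all genes without overlap between guides is not given here. That with an unadjusted p under 0.05 was not counted. Without these shares, the counts say nothing particular to the histone genes. HIST1H4E stood at 0.74, the largest value after that of HIST1H1D, and was not called. Under ibrutinib, 0 of the 34 genes were called by limma, 0 by voom, and 1 had an unadjusted p under 0.05 (HIST1H2AM, at -0.56), where 2.35% of all genes were called. The median log2 difference of the 34 genes was 0.04 in DMSO and -0.11 in ibrutinib, beside 0.0025 and -0.004 over all genes. Summed over the 34 genes, the sgKLHL14 level divided by the sgCTRL level was 1.16 in DMSO and 0.967 in ibrutinib.

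The difference in response, the ibrutinib difference with sgKLHL14 minus that with sgCTRL, passed the test for 0 of the 34 genes in limma and 0 in voom, where 0.0236% of all genes tested were called. An unadjusted p under 0.05 was found for 5 genes, and the share of all genes with such a p was not counted. HIST1H1D was at -1.17, HIST1H2AC at -0.40, HIST1H2BK at -0.34 and HIST1H1C at -0.32, and HIST1H2BN stood at 0.85. Their limma adjusted p ran from 0.481 to 0.848. The value was below 0 for 22 of the 34 genes and above 0 for 12, with a median of -0.14 beside -0.004 over all genes. The standard error of this difference ran from 0.089 to 0.66 over the 34 genes. The 2 responses share no library, but each shares its DMSO libraries with the comparison of guides.

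Many H2A and H2B genes lie head to head and share the sequence between their starts. By the RefSeq starts of GRCh38.p14, 12 such pairs of histone genes had starts at most 500 bases apart, and in 6 of them an H2A and an H2B gene were both measured here, with 194 to 248 bases between their starts. In HIST1H2AI and HIST1H2BL the partners had unlike values: with sgKLHL14 1.79 for HIST1H2AI and -0.06 for HIST1H2BL, and with sgCTRL 1.76 and 0.72. HIST1H2AG gave 0.97 and HIST1H2BJ 0.28 with sgKLHL14, and 0.77 and 0.36 with sgCTRL. In HIST1H2AE and HIST1H2BG the H2B gene had the higher value, 1.23 against 0.56 with sgKLHL14 and 0.97 against 0.90 with sgCTRL. HIST1H2AC and HIST1H2BC gave 0.55 and 0.49 with sgKLHL14 and 0.95 and 0.68 with sgCTRL. HIST1H2AM and HIST1H2BO gave 0.50 and 0.23, then 0.76 and 0.38; HIST1H2AK and HIST1H2BN gave 0.99 and 0.82, then 0.76 and -0.03, in each case with sgKLHL14 first. The H2A partner had the higher value in 5 of the 6 pairs with either guide, and no test was made within pairs.

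**Figure D4:**
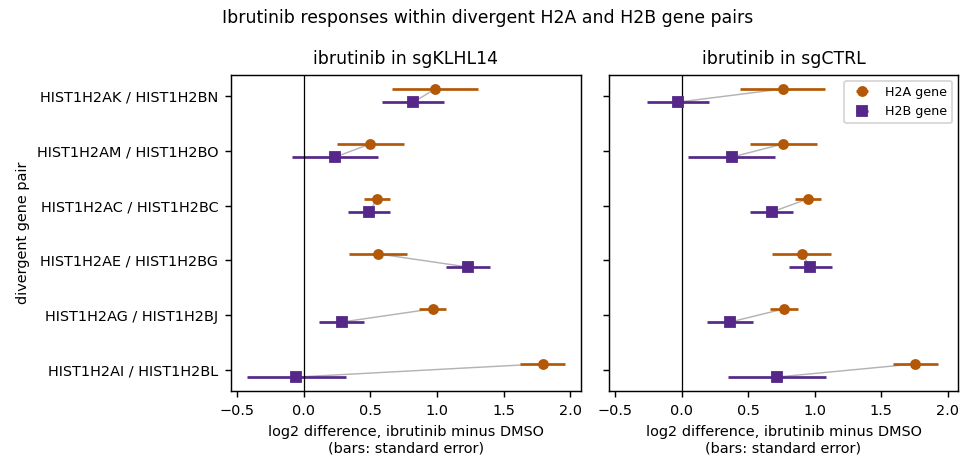
Log2 difference, ibrutinib minus DMSO, with its standard error, of the H2A gene (circle) and the H2B gene (square) of each of 6 divergent pairs, with sgKLHL14 on the left and sgCTRL on the right. The partners lie farthest apart in HIST1H2AI and HIST1H2BL, at 1.79 and -0.06 with sgKLHL14.

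Promoters of 33 of the 34 genes were found in RefSeq (GRCh38.p14, 250 bases before to 50 after the start). On either strand, the octamer ATTTGCAT, the element of H2B promoters that the factor POU2F1 binds, was in 15 of the 33, against 1.77% of 35116 promoters. It was in 5 of 7 H2A, 9 of 12 H2B and 1 of 6 H3 promoters and in 0 of the H1 and H4 promoters. These windows reach over the bases between the starts of the divergent pairs above. The same match, of the octamer or of a box below, can thus be counted for both partners. HIST1H3D, the H3 gene with the octamer, faces HIST1H2BF, which also has it. The box CCAAT was in 28 of the 33 (34.6% of all promoters) and the box TATAAA in 21 (11.5% of all). The H1 box AAACACA was in both H1 promoters and in none of the other 31, against 5.64% of all. With sgKLHL14, 8 of 15 genes with the octamer and 11 of 18 without it rose, and with sgCTRL 11 of 15 and 11 of 18. The genes without it include HIST1H4D, HIST1H4E and HIST1H4K, which had a DMSO mean under the level for inclusion. Both partners of a pair are counted here, with an octamer that they may share. The bases before the start are printed for 1 gene of each of 2 pairs, HIST1H2AI (chr6:27807923-27808172, plus strand), which has no octamer and faces HIST1H2BL, and HIST1H2AE (chr6:26216671-26216920, plus strand), which has it and faces HIST1H2BG, and for HIST1H1C (chr6:26056471-26056720, minus strand); capitals mark the boxes and the octamer. They were chosen after the values were seen.
HIST1H2AI: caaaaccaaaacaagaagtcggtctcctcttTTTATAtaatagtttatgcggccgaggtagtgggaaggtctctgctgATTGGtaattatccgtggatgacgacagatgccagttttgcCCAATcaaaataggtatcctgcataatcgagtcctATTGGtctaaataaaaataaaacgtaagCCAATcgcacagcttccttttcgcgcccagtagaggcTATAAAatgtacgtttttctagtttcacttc
HIST1H2AE: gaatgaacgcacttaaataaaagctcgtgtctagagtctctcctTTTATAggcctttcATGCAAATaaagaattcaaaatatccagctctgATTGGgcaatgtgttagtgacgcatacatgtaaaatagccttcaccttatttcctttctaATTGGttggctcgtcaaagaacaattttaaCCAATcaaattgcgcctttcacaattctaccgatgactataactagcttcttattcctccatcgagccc
HIST1H1C: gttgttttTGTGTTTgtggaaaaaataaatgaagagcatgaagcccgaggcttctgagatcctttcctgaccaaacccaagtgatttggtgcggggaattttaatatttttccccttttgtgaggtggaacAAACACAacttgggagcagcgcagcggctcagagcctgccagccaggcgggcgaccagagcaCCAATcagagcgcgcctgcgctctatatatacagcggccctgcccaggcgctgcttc
A match of letters is a description of the sequence and not a measured site.

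The responses were also read by the form of the annotated transcript. Of the 16 genes with a transcript that runs 100 bases or more past its stem-loop, 11 rose with sgKLHL14 and 12 with sgCTRL. Of the 4 whose transcripts with the stem-loop end nearer to it, 2 rose with sgKLHL14 (HIST1H2AI and HIST1H2BD) and 3 with sgCTRL (HIST1H2AI, HIST1H2AE and HIST1H2BD); HIST1H2BD also has an annotated transcript without the stem-loop. Of the 14 with no stem-loop in the annotation, 6 rose with sgKLHL14 and 8 with sgCTRL. These 14 include HIST1H3J, HIST1H4D and HIST1H4K, and the 16 include HIST1H4E, all with a DMSO mean under the level for inclusion. The medians were 0.85, 0.62 and 0.58 with sgKLHL14 and 0.96, 0.81 and 0.76 with sgCTRL, in the same order of forms. The libraries do not tell the transcript forms of a gene apart.

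The counts of related genes below are to be read beside the shares of all genes tested, 19.6% higher and 19.2% lower with sgKLHL14 and 17.9% higher and 16.8% lower with sgCTRL. The histone variants gave 1 rise and 5 falls among 9 genes with sgKLHL14 and 1 rise and 3 falls with sgCTRL. H1FX, the linker histone H1X, fell by 0.92 with sgKLHL14 and by 1.06 with sgCTRL, CENPA, the histone H3 variant of centromeres, by 0.60 and 0.29, and H2AFY, macroH2A, by 0.28 and 0.17. With sgKLHL14, H2AFZ (-0.57) and H2AFX (-0.34) also fell and H3F3A rose by 0.31, while with sgCTRL H2AFJ rose by 0.29. Of 26 genes for the making and decay of histone mRNA, 3 rose and 5 fell with sgKLHL14, and 4 rose and 2 fell with sgCTRL, near or below the shares of all genes. SLBP fell by 0.38 with sgKLHL14 and by 0.29 with sgCTRL, and CDK2, the partner of cyclin E that switches on the histone gene activator NPAT, fell by 0.48 and 0.24. NPAT itself stood at -0.01 with either guide. POU2AF1, the B cell coactivator of octamer-binding factors, rose by 0.82 with sgKLHL14 and by 0.56 with sgCTRL, and was 0.36 higher in sgKLHL14 than in sgCTRL cells under ibrutinib. PAN2, a subunit of a poly(A) nuclease, rose by 0.50 and 0.58, and the decay helicase UPF1 by 0.20 and 0.27. CCNE2 rose by 0.42 with sgCTRL, and CCNE1 (-0.25), CPSF3 (-0.16) and DHX9 (-0.15) fell with sgKLHL14.

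Of 21 histone chaperones, 2 rose and 11 fell with sgKLHL14, and 1 rose and 8 fell with sgCTRL. CHAF1B, a subunit of the factor that places H3 and H4 behind the replication fork, fell by 0.70 with sgKLHL14 and by 0.58 with sgCTRL, and SSRP1, a subunit of the chaperone FACT, by 0.52 and 0.36. ANP32E fell by 0.44 and 0.32 and HJURP, the chaperone of CENPA, by 0.45 and 0.28. DAXX, which delivers H3.3, rose by 0.18 and 0.28, and its partner ATRX rose by 0.35 with sgKLHL14. Of 29 S phase genes, 1 rose and 24 fell with sgKLHL14, and 3 rose and 15 fell with sgCTRL, with medians of -0.41 and -0.16. PCNA, the sliding clamp of replication, fell by 0.52 with sgKLHL14 and by 0.28 with sgCTRL, and MCM2, a subunit of the replicative helicase, by 0.63 and 0.26. E2F2, a transcription factor of the cell cycle, rose by 0.62 with sgKLHL14 and by 0.85 with sgCTRL, and E2F1 and GINS3 rose by 0.21 and 0.23 with sgCTRL. The median of the 34 histone genes stood at 0.68 with sgKLHL14 and 0.85 with sgCTRL in the same libraries. Between guides 3 genes of these lists were called, H2AFZ, 0.34 higher in sgKLHL14 than in sgCTRL DMSO cells, and POU2AF1 and GINS1 under ibrutinib, GINS1 at -0.29.

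**Figure D5:**
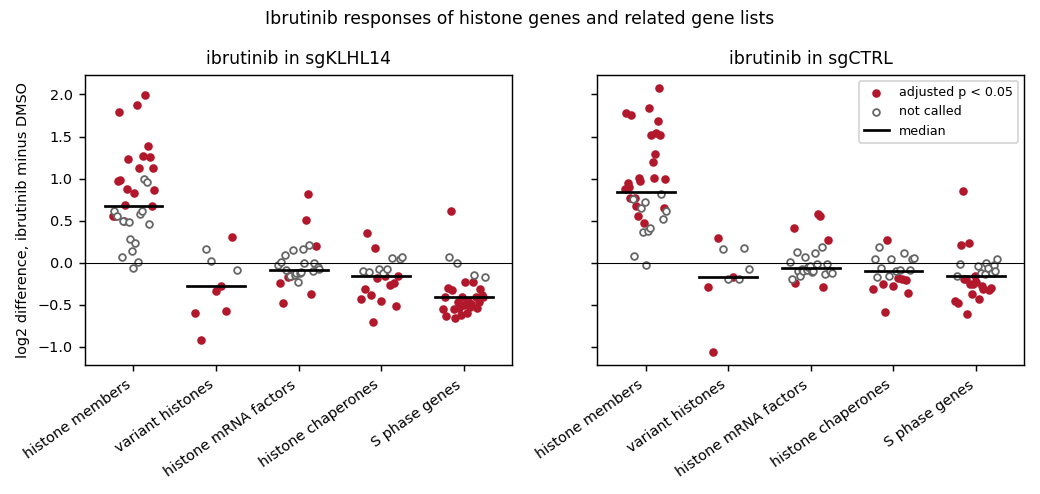
Log2 difference, ibrutinib minus DMSO, of each gene (point; filled where the adjusted p was under 0.05) of the 34 histone genes and 4 related lists, with the list's median (line), for sgKLHL14 on the left and sgCTRL on the right. The histone genes have medians of 0.68 and 0.85, and the S phase genes lie mostly below 0, with medians of -0.41 and -0.16.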

How the data were processed

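The 8 libraries of TMD8 cells were prepared with a stranded mRNA kit and read from both ends, per the labels' protocols. The submitters' processing notes name bcl2fastq, STAR, HTSeq and the build hg19. Versions, annotation and the strand setting of the counting: not given in the sources used here. Reads in overlapping or antisense genes may thus be assigned to either gene. The authors deposited log2 values of normalised read counts per gene, and a row of total reads, which entered no test. The deposited values were found to be log2 of whole reads multiplied by 1 number per library (100% within 6e-04; 0 reads are listed at 0). Nothing shows how the authors set that number. Replicates differed beyond sampling noise (chi-square per degree of freedom 2.10 to 7.45), which does not show whether they were separate cultures. Each library was treated as its own sample.

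Genes with a mean log2 of at least 4 (12702) were analysed by limma-trend (limma 3.58.1, R 4.3.3) on 4 group means (4 residual and 15.03 prior degrees of freedom) and Benjamini-Hochberg adjustment over all genes tested, and called at an adjusted p under 0.05. No pseudocount entered. The comparisons were ibrutinib with either guide, sgKLHL14 in either treatment and the difference in response. The 34 histone genes and the related lists were chosen with earlier results of these data known. The genes given in full are the 3 with the highest mean in each class and, per comparison, the 3 called with the smallest p and the 3 with the largest difference; of the other lists, up to 4 called genes with the smallest p, and further genes chosen after their values were seen. H3F3C, SLIP1, ARS2, TONSL, MMS22L and CDC45 were not matched. Some members of the marker lists are not reported here. Alternatives were other level filters, variance priors and scalings, a pseudocount of 16, voom on recovered reads, a replicate block, the compared libraries alone, and each library left out. Stem-loops were read from GENCODE v29 transcripts and promoters from RefSeq (GRCh38.p14); no coordinate was joined to the hg19 values.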

Additional observations from a re-analysis of the deposited data

How the results depend on the processing

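Of 2931 results of single histone genes under 18 alternatives, 2875 kept their side of the threshold, 39 lost a call and 17 gained one. A change of direction in a value that was called in neither fit counted as kept. With ibrutinib, 0 histone genes were called lower in any alternative. The histone genes called with ibrutinib numbered 13 to 20 with sgKLHL14 (19 with all libraries) and 18 to 23 with sgCTRL (23 with all libraries) when 1 library was left out, and 13 to 21 and 13 to 24 under the other settings. The 13 with sgCTRL came from a mean log2 of at least 6, which left fewer genes to test. Where a group was left with 1 library, that library is assumed to vary like the other groups. The lowest count with sgKLHL14, 13, was without the second sgKLHL14 ibrutinib library. Over all genes, leaving out 1 library gave 3564 to 4955 calls for ibrutinib with sgKLHL14 and 2904 to 4633 with sgCTRL, 67 to 532 for the guides in DMSO, 123 to 363 for the guides in ibrutinib and 2 to 4 for the difference in response. Without the level filter, the guides gave 47 calls in DMSO and 155 in ibrutinib, and the difference in response 0; without the mean-variance trend these were 25, 96 and 0. The histone genes called between guides in DMSO then numbered 0 in both settings, and 0 to 2 without 1 library. The cause was not tested.

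As the mean of log2 values in place of the log2 ratio of sums, the 34 genes differed by 0.79 in place of 0.44 for ibrutinib with sgKLHL14, by 0.94 in place of 0.70 with sgCTRL and by 0.049 in place of 0.22 for the guides in DMSO; the sum follows HIST1H1C and HIST1H2BK. The labels do not say whether libraries of the same replicate number were paired. Deviations of same-numbered libraries correlated at -0.0547 to 0.105, which cannot show whether they shared a culture or a day. With a replicate block, ibrutinib gave 20 histone genes with sgKLHL14 and 23 with sgCTRL, and over all genes the guides gave 369 calls in DMSO and 432 in ibrutinib and the difference in response 5. Comparing the treated and vehicle libraries alone gives no separate value for the difference in response. Low read numbers, down to 6 in a library for HIST1H4D, HIST1H4E and HIST1H3J, limit what can be seen of single H3 and H4 genes.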
